A study of Mus musculus with 18 samples.

Results

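The 13 genes described here are those of the deposited liver count table whose name starts with mt-, out of 35275 genes in all. They are the 13 protein-coding genes of the mouse mitochondrial genome, and the 13 rows the table places on that genome are the same ones. Ribosomal and transfer RNAs of the mitochondrion were not analysed here. The rule used only the gene name and no measured value.

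Mitochondrial DNA is a small circle, present in many copies per cell, that is transcribed from both strands as long precursors. The precursors are cut at the transfer RNAs between the genes, and most of the resulting messenger RNAs receive a poly(A) tail. All the encoded proteins are core subunits of the respiratory chain or the ATP synthase, and each works in a complex with subunits made from nuclear genes. Copies of stretches of mitochondrial DNA also sit in the nuclear genome, and a recent copy can match the original base for base. The liver is rich in mitochondria because hepatocytes oxidise fatty acids and run part of the urea cycle in them.

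Liver RNA came from mice of a mixed B6;129P2 background, wild type (WT) or knockout (KO) for NRF2, with 3 libraries in each of 6 groups. They were sampled after treatment with diethylnitrosamine (DEN), and the times were 2 days (written 2D here), 4 weeks (written 4W) and 36 weeks (written 36W). NRF2, the product of Nfe2l2, drives antioxidant and detoxification genes, and is a different protein from the nuclear respiratory factors that act on mitochondrial biogenesis. DEN, a carcinogen activated in hepatocytes, was given to every group, so no group shows untreated liver. By its source label the material is liver tumor at 2D and liver tissue at 4W and 36W, and the extraction text speaks of tumours throughout, so the tumour content of a library is unknown. Whether libraries come from separate animals is not stated, and p-values therefore measure the spread between these libraries, which may be technical. Sample titles at 2D carry codes with another first letter than at 4W and 36W. Its meaning is not given, and it cannot be told apart from the time. Libraries held 15294175 to 24233456 counts, with a median of 18543173. The Nfe2l2 level was 70.2 to 127 scaled CPM (a gene's counts relative to those of its library, scaled between libraries) in WT and 37.8 to 67.8 in KO, so its transcript was still counted in the knockout. Nqo1, a standard NRF2 target, had 11.2 to 103 scaled CPM in WT and 0.753 to 6.41 in KO libraries. WT replicate 3 of 2D stood apart, with a summed CPM of 6919 for 6 stellate cell and fibroblast markers against 943 to 1437 in the other 2D libraries. The WT libraries of 36W were less alike still. The chi-square per gene between the counts of 2 libraries, larger when they differ more, was 161, 137 and 81.6 among them. It was 74.2 and 72.0 between WT replicate 3 of 2D and its group.

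The genes differ in how far their sequence can be told from the nucleus, which bears on every count that follows. Of the 50-base windows of mt-Co2, the second subunit of cytochrome c oxidase, 100% also occur in another annotated transcript. The same holds for 99.9% of mt-Co3, 99.5% of mt-Atp6, 98.8% of mt-Nd4l and 98.0% of mt-Nd3. The share was 62.2% for mt-Nd4 and 51.1% for mt-Co1, and 8.19% for mt-Nd2 and 7.61% for mt-Nd5. It was 0 for mt-Nd1, mt-Nd6, mt-Cytb and mt-Atp8. The longest matches lie in 7 unprocessed pseudogenes that stand in a row on the minus strand of chr1:24611535-24616197 (GRCm38), in the order of their mitochondrial counterparts. Each pair below gives the mitochondrial gene and then its chromosome 1 copy, from GENCODE M21 transcripts on GRCm38, in the sense direction, with capitals where the pair differ. The pair of mt-Nd3 (MT:9459-9578) and Gm28438 (chr1:24613000-24613119) is shown because mt-Nd3 is the gene whose KO effect edgeR called different between times below.
mt-Nd3: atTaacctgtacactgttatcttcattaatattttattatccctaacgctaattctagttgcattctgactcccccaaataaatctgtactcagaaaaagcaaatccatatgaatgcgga
Gm28438: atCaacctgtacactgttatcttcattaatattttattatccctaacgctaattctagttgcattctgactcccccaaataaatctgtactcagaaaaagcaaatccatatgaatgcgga
Position 3, counted from 1 at the 5′ end of the mitochondrial gene, differs as T3C with the mitochondrial base first, and it is the only mismatch over 345 aligned bases. The pair of mt-Co2 (MT:7013-7132) and Gm28661 (chr1:24615446-24615565) shows a copy with 0 mismatches over 681 bases.
mt-Co2: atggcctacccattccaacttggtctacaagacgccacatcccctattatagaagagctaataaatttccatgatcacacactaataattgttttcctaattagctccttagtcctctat
Gm28661: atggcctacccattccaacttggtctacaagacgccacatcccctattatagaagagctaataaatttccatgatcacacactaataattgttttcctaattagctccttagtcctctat
The pair of mt-Co1 (MT:6381-6500) and Gm29216 (chr1:24616078-24616197) shows the edge of the inserted block, where only the last part of the gene has a copy.
mt-Co1: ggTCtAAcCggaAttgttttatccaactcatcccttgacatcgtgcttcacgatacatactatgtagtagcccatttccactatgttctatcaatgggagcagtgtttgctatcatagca
Gm29216: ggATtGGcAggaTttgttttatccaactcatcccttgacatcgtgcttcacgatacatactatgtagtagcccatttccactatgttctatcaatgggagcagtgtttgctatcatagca
Over 492 aligned bases of mt-Co1 there were 6 mismatches, T1056A, C1057T, A1059G, A1060G, C1062A and A1066T, all of them close to that edge. The copies of mt-Atp6, mt-Co3, mt-Nd4l and mt-Nd4 had 0 mismatches over 678, 783, 294 and 876 bases.

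The other edge of the block lies inside mt-Nd4, a membrane subunit of complex I. In the stretch MT:10983-11102 the capitals mark the bases that Gm28439 also holds, and the lower case is the part of the gene with no copy there.
mt-Nd4: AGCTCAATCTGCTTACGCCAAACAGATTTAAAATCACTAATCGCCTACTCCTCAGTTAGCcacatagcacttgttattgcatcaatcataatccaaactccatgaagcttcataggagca
For contrast, the start of mt-Cytb (MT:14145-14264) is shown as a gene in which no 50-base window was found in another transcript.
mt-Cytb: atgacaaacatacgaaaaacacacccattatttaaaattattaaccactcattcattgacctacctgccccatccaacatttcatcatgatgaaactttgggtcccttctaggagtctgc
The mt-Atp8 gene (MT:7766-7969) is given whole, because it was nearly without counts although no 50-base window of it occurs in another annotated transcript. Its capitals mark the 43 bases that it shares with mt-Atp6 by overlap on the mitochondrial genome.
mt-Atp8: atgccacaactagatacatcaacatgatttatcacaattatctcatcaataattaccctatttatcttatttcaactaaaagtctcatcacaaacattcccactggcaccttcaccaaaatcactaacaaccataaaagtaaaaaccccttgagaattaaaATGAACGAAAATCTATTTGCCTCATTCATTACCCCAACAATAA
The starts of neighbouring copies on chromosome 1 are as far apart as on the mitochondrial genome, except for the step from mt-Nd3 to mt-Nd4l, which is 1 base longer. By that spacing mt-Atp8 would fall at chr1:24614609-24614812, most of it in the stretch 24614652 to 24614884 where no copy is annotated. The bases of that stretch were not read here.

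The 13 genes split into a high and a low set, and the low set is the one with near-complete copies together with mt-Atp8. Per kilobase of gene, mean levels over the 18 libraries ran from 1931 to 12629 CPM for 7 genes and from 0.0727 to 60.2 CPM for the other 6. The low set held 0.274% of all mitochondrial counts. Per kilobase, the order in the high set was mt-Co1 with a mean of 12629 CPM, mt-Nd1 with 6674, mt-Cytb with 5782, mt-Nd2 with 4768, mt-Nd4 with 2266, mt-Nd5 with 2224 and mt-Nd6 with 1931. The ranges over libraries of mt-Nd4 (1233 to 3322), mt-Nd5 (646 to 3366) and mt-Nd6 (718 to 2903) overlapped almost wholly, so these neighbours in the order cannot be ranked. In the low set mt-Co2 had 60.2 CPM per kilobase, mt-Nd3 50.8, mt-Co3 44.7, mt-Atp6 42.8 and mt-Nd4l 8.71. The mt-Atp8 gene, an ATP synthase subunit, had 0 counts in 14 libraries, 1 count in 3 libraries and 2 counts in KO replicate 2 of 4W. A count of 0 allows up to 3 counts, or 0.124 to 0.196 CPM depending on the library, and covers counting error only.

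**Figure D1:**
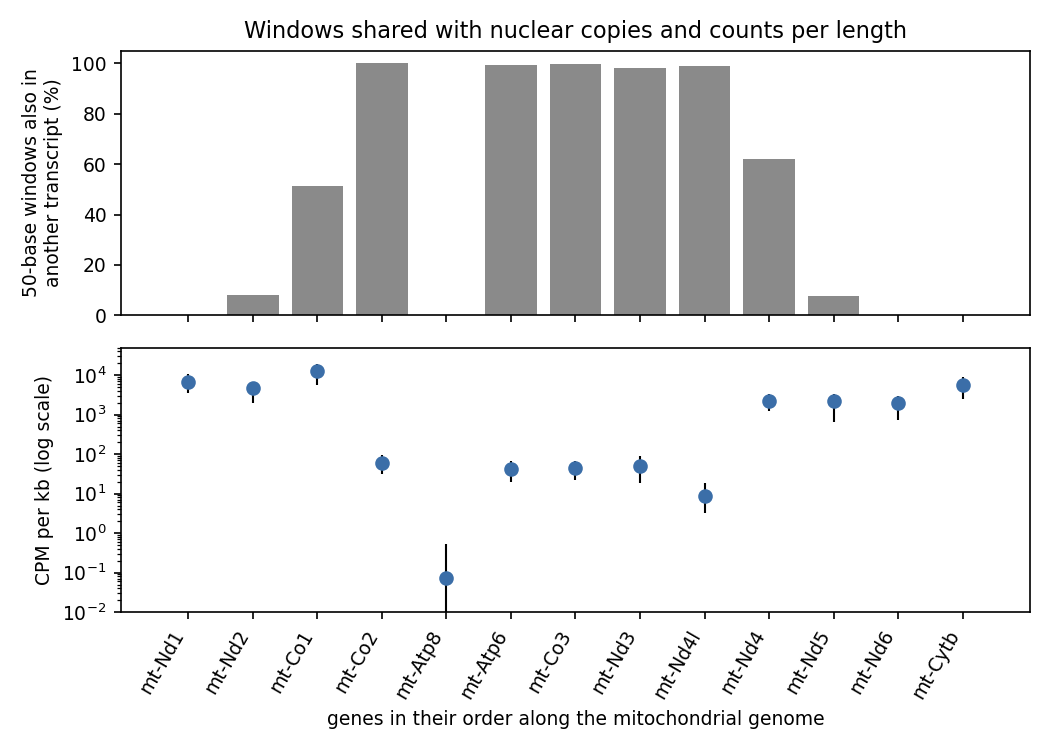
The upper panel plots, for each gene in genome order, the percentage of its 50-base windows that also occur in another transcript, and the lower panel its mean CPM per kilobase over 18 libraries on a log axis, with a line from the lowest to the highest library (drawn from 0.01 for mt-Atp8, whose lowest is 0). The 5 genes with at least 98.0% shared windows lie at 60.2 CPM per kilobase or below, and mt-Atp8 lies lowest with 0% shared.

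Across the 12 genes without mt-Atp8, the rank correlation between shared windows and CPM per kilobase was -0.69, given as a description of genes that share libraries. How reads that match both places were handled is not given in the sources used here, and its part in the low counts was not tested. The counts of the copies ranged from near those of the gene to far below them. Gm28661 averaged 793 counts per library against 762 for mt-Co2, Gm28437 594 against 649 for mt-Co3, and Gm10222 45.7 against 47.8 for mt-Nd4l. Gm10925 averaged 989 against 539 for mt-Atp6, while Gm28438 averaged 56.6 against 327 for mt-Nd3. The partial copies were far lower, with 565 for Gm29216 against 361731 for mt-Co1 and 373 for Gm28439 against 57927 for mt-Nd4. Counts of mt-Co2, mt-Atp6, mt-Co3, mt-Nd3 and mt-Nd4l are therefore uncertain as levels of those transcripts. Part of the sequence of mt-Co1 and mt-Nd4 is shared as well, and how much of their counts came from it is unknown. The whole count of a gene, divided by its number of unshared windows, averaged 131, 101.3, 115 and 112 for mt-Nd1, mt-Nd2, mt-Nd4 and mt-Cytb. This quotient was 45.7 and 39.2 for mt-Nd5 and mt-Nd6, and 495 for mt-Co1. For mt-Atp6, mt-Co3, mt-Nd3 and mt-Nd4l, with only 3, 1, 6 and 3 unshared windows, it was 180, 649, 54.5 and 15.9. It was 0.0018 for mt-Atp8, and mt-Co2 has 0 unshared windows. Reads within the windows were not counted. Neighbours also overlap on the mitochondrial genome. The 14-base overlap of mt-Nd5 and mt-Nd6 lies on opposite strands, and as strand was not stated in the sources used here, reads there cannot be told apart.

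The share of all gene counts that fell on the 13 genes was close to 5% at 2D, varied more at 4W and was lower at 36W in both genotypes. In WT it was 5.25%, 5.15% and 5.34% at 2D, 4.95%, 5.01% and 5.72% at 4W, and 3.98%, 2.64% and 2.87% at 36W. In KO it was 5.13%, 5.11% and 5.03% at 2D, 6.58%, 5.46% and 6.22% at 4W, and 2.76%, 3.06% and 2.12% at 36W. Every 36W library was below every earlier one, and at 4W and 36W the genotypes overlapped. Counting error was small beside these spreads, since the exact 95% Clopper-Pearson interval reached at most 0.0113 points to either side. The smallest exact p that 3 against 3 libraries allow is 0.1.

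**Figure D2:**
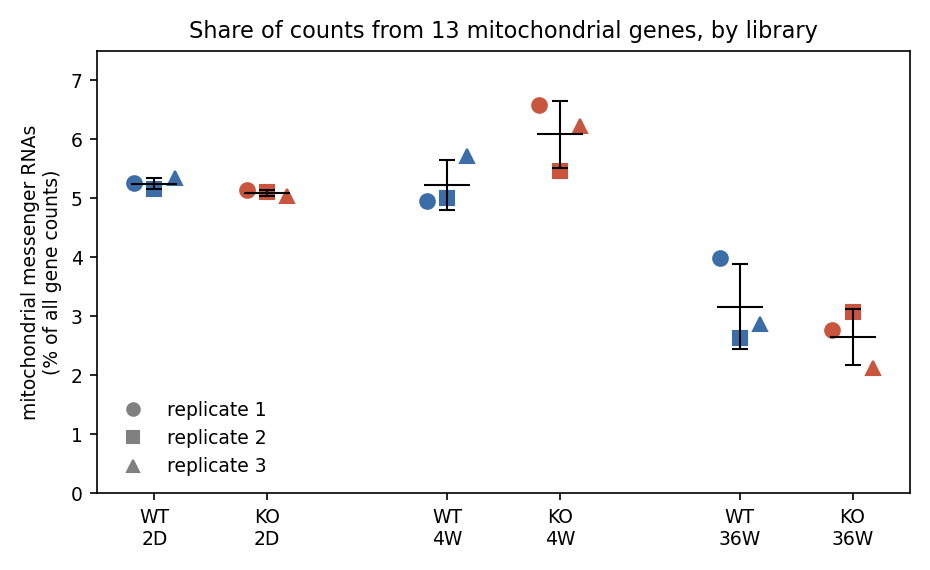
Each point is 1 library, with the percentage of all gene counts that fell on the 13 mitochondrial genes on the vertical axis and the 6 groups on the horizontal axis. Horizontal bars are group means, and error bars are the SD over 3 libraries. The 6 libraries of 36W lie between 2.12% and 3.98%, and the other 12 between 4.95% and 6.58%.

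From 4W to 36W the share fell by 2.75 points over both genotypes, from a mean of 5.66% to 2.91%. It fell by 2.06 points in WT and by 3.44 points in KO. The exact permutation test of time within genotype, two-sided, gave p = 0.005, the smallest it allows, and 0.0175 after Benjamini-Hochberg adjustment over the 7 share comparisons made. From 2D to 36W the share fell by 2.26 points with the same exact p = 0.005 and adjusted p. From 2D to 4W it changed by 0.486 points (exact permutation p = 0.115, adjusted 0.201), which was -0.0209 points in WT and 0.993 points in KO.

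No difference in the share between genotypes passed the test, which at a single time cannot reach 0.05. KO minus WT was -0.154 points at 2D, where the 3 KO libraries all lay below the 3 WT libraries (exact permutation p = 0.1, the smallest possible, adjusted 0.201). It was 0.860 points at 4W (exact p = 0.2, adjusted 0.28) and -0.514 points at 36W (exact p = 0.5, adjusted 0.583). Over the 3 times together it was 0.0641 points (exact p = 0.81). Without WT replicate 3 of 2D, the library that stood apart, the 2D difference was -0.107 points (exact p = 0.1). Leaving the 10 most abundant nuclear genes out of the total turned the 2D difference to 0.0415 points (exact permutation p = 0.6).

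Shares move with the other contents of a library, and these moved with time. Alb, which encodes serum albumin, took 12.5% to 17.2% of counts at 36W and 6.79% to 10.8% earlier, and the 10 most abundant nuclear genes took 21.8% to 29.4% against 14.6% to 20.4%. With those 10 genes left out of the total, the share fell by 2.86 points from 4W to 36W (exact permutation p = 0.005). Summed CPM of 7 hepatocyte markers was 154349 to 207346 at 36W and 91658 to 132983 earlier, with all 7 detected in every library. Alb made up most of that sum, with 124871 to 171726 CPM at 36W. Cps1, the urea cycle enzyme of the mitochondrial matrix and also on the hepatocyte list, went the other way, from 3944 to 4695 CPM at 4W to 864 to 2399 at 36W. Summed CPM of 5 cholangiocyte markers was 706 to 1093 in KO at 36W, 85.4 to 509 in WT at 36W, 100.3 to 149.6 at 4W and 110.8 to 542 at 2D, the highest of these in WT replicate 3. Spp1 alone made up 665 to 1070 CPM of it in KO at 36W, where the defining marker Krt19 had 0.105 to 2.67 CPM against 1.58 to 7.54 in KO at 4W. Summed CPM of 3 nuclear or unpolyadenylated RNAs was 613 to 889.8 in KO at 4W and 1000.4 to 1388 at 36W without overlap, and in WT it was 446 to 1043 and 564 to 1042. Summed CPM of 5 B and plasma cell markers reached 329 in WT replicate 1 of 36W, the 36W library with the highest mitochondrial share, against 32.5 to 63.8 in the other 36W libraries. Over the 18 libraries Ighm and Jchain reached 187 and 136 CPM, while Cd79a, Cd79b and Ms4a1 reached at most 3.68, 3.73 and 3.19. The part of all these contents in the mitochondrial shares was not tested. In bulk tissue, fewer cells of a type and less RNA per cell cannot be told apart.

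Gene by gene, levels were compared after TMM scaling, which sets the libraries to the bulk of their genes. The factors were 1.04 to 1.23 at 2D, 0.876 to 1.00 at 4W and 0.838 to 0.981 at 36W. For 4W against 2D the median log2 fold change of all genes was -0.335 in WT and -0.182 in KO with library size alone. With TMM it was -0.0486 and 0.0242, so the choice of scaling shifted it by -0.286 and -0.206. Changes below are relative to TMM. KO against WT was tested in the 6 libraries of each time, and 12 of the 13 genes passed the filter on low counts, mt-Atp8 being left out in every comparison. With edgeR's quasi-likelihood test and Benjamini-Hochberg adjustment, 0 of 12 genes passed an adjusted p of 0.05 at 2D, at 4W and at 36W. Over all genes the percentage called was 0.165% at 2D, 6.08% at 4W and 0.037% at 36W. At an unadjusted p under 0.05 the counts were 0, 0 and 1 of 12, and DESeq2 and limma-voom also called 0 at each time. Of all genes, DESeq2 called 707 of 13238 at 2D, 1222 of 13685 at 4W and 293 of 14478 at 36W. By limma-voom 7, 812 and 6 were called. The 2D percentage over all genes rests on 1 library. Without WT replicate 3 of 2D, edgeR called 1853 of 14147 genes, against 23 of 13913 with it, and still 0 mitochondrial genes. Median log2 fold changes of the 12 genes were 0.04, 0.13 and -0.11, beside -0.04, 0.01 and 0.01 for all genes tested.

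**Figure D3:**
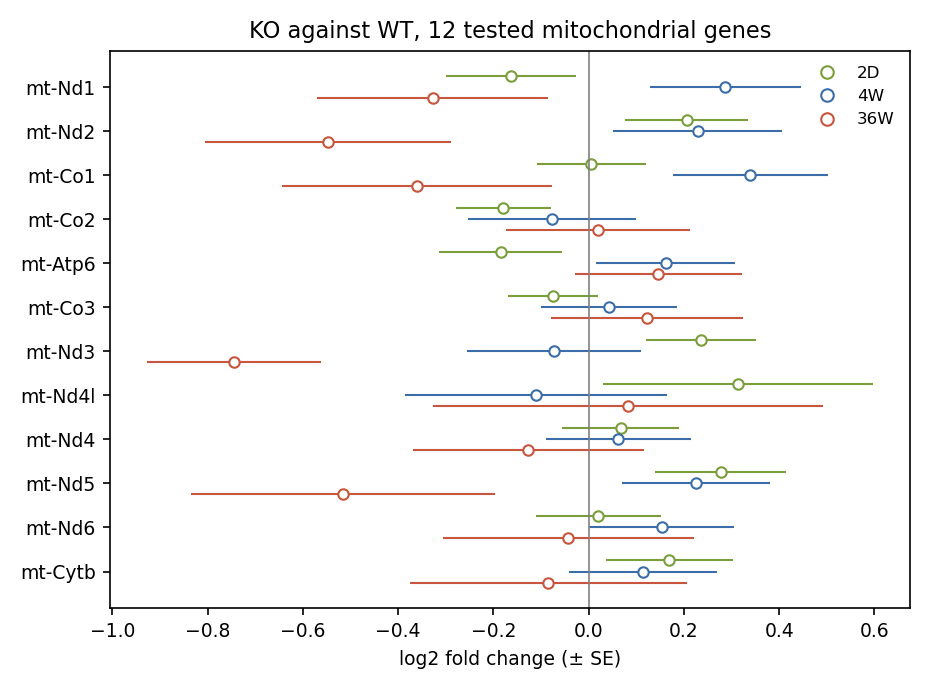
Log2 fold change of KO against WT on the horizontal axis for the 12 tested mitochondrial genes, at 2D, 4W and 36W, with bars of 1 standard error from edgeR. Open circles stand for an adjusted p of 0.05 or above, and all 36 points are open. The point farthest from 0 is mt-Nd3 at 36W, at -0.75.

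Of complex I, the NADH dehydrogenase that feeds the chain, mt-Nd3 encodes a small membrane subunit. It had 14.5, 15.96 and 15.96 scaled CPM in WT at 2D and 19.4, 18.4 and 17.4 in KO. At 4W it had 22.9, 22.5 and 32.9 in WT and 28.5, 20.2 and 26.0 in KO. At 36W it had 14.7, 11.7 and 13.5 in WT and 7.85, 8.74 and 6.82 in KO. Every KO library was above every WT library at 2D, the genotypes overlapped at 4W, and every KO library was below every WT library at 36W. The log2 fold change was 0.24 ± 0.12 (SE) at 2D, -0.07 ± 0.18 at 4W and -0.75 ± 0.18 at 36W, with edgeR adjusted p of 0.367, 0.853 and 0.267. Fitted with all 18 libraries, the 36W change was -0.77 with an adjusted p of 0.0285.

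Other genes whose groups did not overlap were not called. At 2D mt-Nd2, mt-Nd3 and mt-Nd5 were higher and mt-Co2 lower in every KO library, at 4W all genes overlapped, and at 36W mt-Nd2, mt-Co1 and mt-Nd3 were lower in every KO library. How often the groups of all genes separated this way was not counted, here or between times below. These separations can therefore not be called particular to the mitochondrial genes. The mt-Nd2 gene, a membrane subunit of complex I, had 5063, 3972 and 3448 scaled CPM in WT at 36W and 3252, 3014 and 2147 in KO. Its change was -0.55 ± 0.26 with an edgeR adjusted p of 0.452.

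The change of the KO effect between times was tested in the fit of all 18 libraries. Between 2D and 36W it was called for 1 of 12 genes, mt-Nd3, at -1.02 ± 0.24 (log2, SE) with an edgeR adjusted p of 0.0316, where 3.04% of all genes were called. Library size alone gave -0.82 with an adjusted p of 0.0645, and was not called. It was also lost when any 1 of 7 libraries was left out, with values from -1.04 to -0.93 and adjusted p from 0.0621 to 0.0879. Those 7 were WT replicates 1 and 2 and KO replicates 1, 2 and 3 of 2D, WT replicate 1 of 36W and KO replicate 3 of 36W. Its copy Gm28438 had 0.36 ± 0.42 in the same contrast with an adjusted p of 0.683. The counts behind mt-Nd3 were 114 to 505 per library. The difference was called for 0 of 12 genes between 2D and 4W and for 0 of 12 between 4W and 36W, where 1.34% and 0.565% of all genes were called. At an unadjusted p under 0.05 those counts were 0 and 5, limma-voom called 0 and 0, and DESeq2 called 0 and 1, the 1 being mt-Co1.

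Between 2D and 4W mt-Co2, mt-Atp6, mt-Co3, mt-Nd4 and mt-Cytb rose in both genotypes, mt-Nd3 and mt-Nd4l in WT, and mt-Co1 in KO. The difference between the genotypes was called for 0 of 12 genes. In WT 7 of 12 genes were higher and 1 lower at 4W, while 19.1% of all genes were called higher and 18.6% lower. In KO 6 of 12 were higher and 0 lower, beside 13.5% and 10.8% of all genes. Many of these calls fell in the low set, which held 0.274% of mitochondrial counts and whose levels are uncertain. In WT these were mt-Co2, mt-Atp6, mt-Co3, mt-Nd3 and mt-Nd4l. Of the high set, mt-Nd4 and mt-Cytb were called higher and mt-Nd1 lower in WT, and mt-Co1, mt-Nd4 and mt-Cytb higher in KO. The WT share of all counts changed by -0.0209 points. Median log2 fold changes of the 12 were 0.57 in WT and 0.65 in KO, beside -0.05 and 0.02 for all genes. With library size alone the WT counts were 4 higher and 1 lower. These comparisons use the same 4W libraries as those with 36W and are not independent of them.

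Cytochrome b, encoded by mt-Cytb, is the one mitochondrially encoded subunit of complex III, which passes electrons to cytochrome c. Its scaled CPM was 4820, 5289 and 5656 in WT at 2D and 6650, 5757 and 5483 in KO. At 4W it was 8832, 8815 and 10804 in WT and 11681, 8682 and 10604 in KO, above every 2D library of either genotype. It rose by 0.85 ± 0.21 (log2, SE, edgeR adjusted p = 0.00472) in WT and by 0.79 ± 0.21 (adjusted p = 0.0113) in KO, where the call was lost without KO replicate 3 of 2D or KO replicate 1 of 4W (0.71 and 0.69, adjusted p 0.0602 and 0.0532).

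The mt-Nd1 gene lies closest to the ribosomal RNA genes and encodes the complex I subunit next to the quinone site. Its scaled CPM was 8814, 8111 and 6963 in WT at 2D and 5465, 5284 and 6601 at 4W. In KO it was 7099, 7181 and 7297 at 2D and 8217, 5867 and 7213 at 4W. The WT groups did not overlap, while the KO groups did. It fell by 0.46 ± 0.18 (log2, SE) in WT with an edgeR adjusted p of 0.0499, and was -0.02 ± 0.18 in KO (adjusted p = 0.955). The difference between these changes was 0.44 ± 0.25 with an adjusted p of 0.39 and was not called. The WT call was lost without WT replicate 1 or 2 of 2D or WT replicate 1 or 2 of 4W, with adjusted p of 0.114 to 0.156. It was also lost with no filter on low counts (0.108).

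Of the other complex I genes, mt-Nd4 rose by 0.76 ± 0.18 in WT and by 0.75 ± 0.18 in KO (edgeR adjusted p = 0.00375 and 0.00649). The mt-Nd2 and mt-Nd5 changes lay between 0.06 and 0.18 and turned negative with library size alone, and that of mt-Nd6 was -0.16 in WT and -0.04 in KO. None of the 3 genes was called in either genotype. Of the cytochrome c oxidase core, mt-Co1 encodes the catalytic subunit with the oxygen-binding centre. In WT it had 18662, 18440 and 18215 scaled CPM at 2D and 21713, 22113 and 26316 at 4W. The groups did not overlap, and the change was 0.34 ± 0.18 with an adjusted p of 0.144. In KO it went from 19063, 19063 and 17956 to 34254, 25345 and 29660 and rose by 0.67 ± 0.18 (adjusted p = 0.0127), a call lost without KO replicate 3 of 2D (0.0616) or KO replicate 1 of 4W (0.0635), with library size alone (0.0532) and with no filter on low counts (0.0574). The genes with near-complete copies, mt-Co2, mt-Atp6 and mt-Co3, rose by 0.53 to 0.63 in WT and by 0.63 to 0.96 in KO, all called. Their copies Gm28661, Gm10925 and Gm28437 had 0.51, 0.52 and 0.66 in WT and 0.71, 0.92 and 0.62 in KO, also all called. The WT calls of mt-Co2, mt-Atp6 and mt-Co3 were lost with library size alone, which gave 0.25, 0.33 and 0.34 (adjusted p 0.252, 0.068 and 0.1004). Leaving out 1 library lost the mt-Co2 call in 4 cases in WT, those of WT replicates 1 and 3 of 2D and WT replicates 2 and 3 of 4W (adjusted p 0.0582 to 0.11). In KO it was lost without KO replicate 2 or 3 of 2D or KO replicate 1 or 3 of 4W (0.0581 to 0.0633) and with library size alone (0.0877). In KO, mt-Nd3 and mt-Nd4l were above 2D in every 4W library without being called (0.44 and 0.79, adjusted p 0.062 and 0.0688). The number of KO calls was 3 without KO replicate 3 of 2D or KO replicate 1 of 4W.

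**Figure D4:**
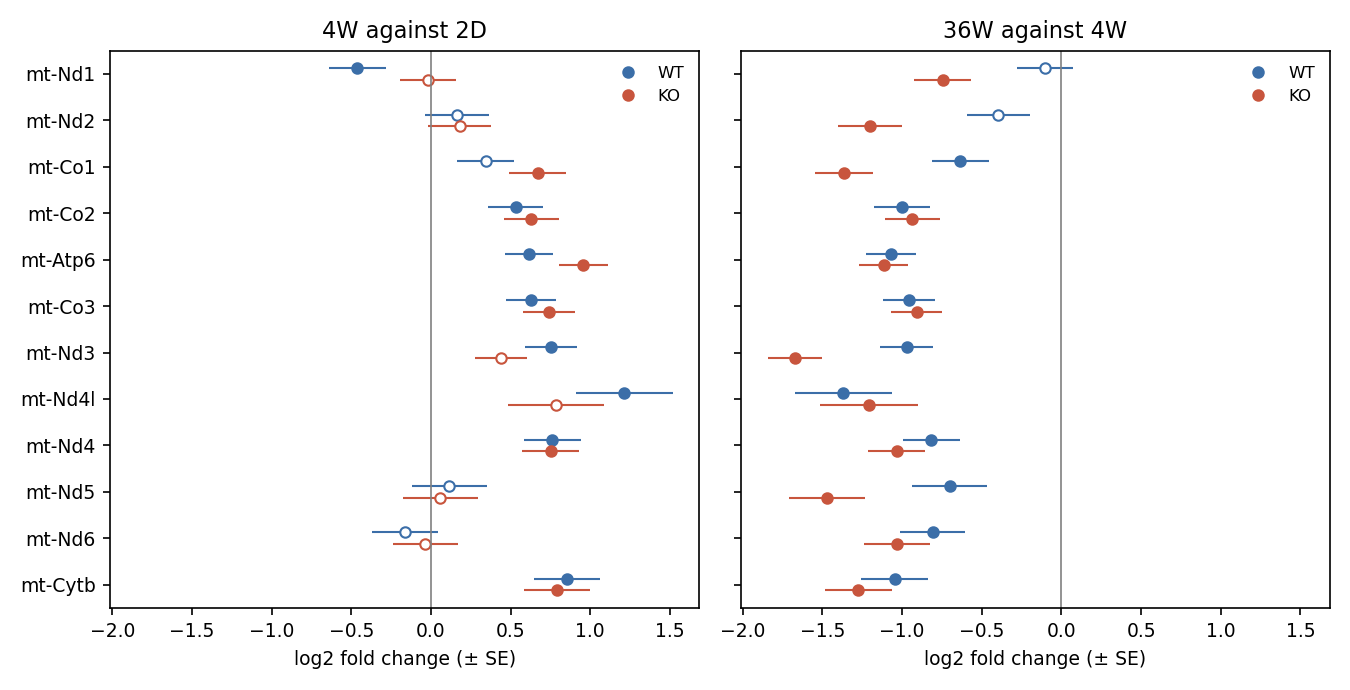
Log2 fold change on the horizontal axis for the 12 tested mitochondrial genes, 4W against 2D in the left panel and 36W against 4W in the right panel, WT in blue and KO in red, with bars of 1 standard error from edgeR. Filled circles have an adjusted p under 0.05. In the right panel all 12 KO points are filled and lie between -1.67 and -0.75, while mt-Nd1 and mt-Nd2 are open in WT.

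Between 4W and 36W most mitochondrial genes fell in both genotypes, and mt-Nd1 and mt-Nd2 were called in KO but not in WT, a difference between genotypes that was itself not called. In KO 12 of 12 tested genes were lower, with changes from -1.67 to -0.75 and no overlap between the groups, while 15.3% of all genes were called lower. In WT 10 of 12 were lower, from -1.37 for mt-Nd4l to -0.64 for mt-Co1, beside 9.13% of all genes. The medians were -1.16 in KO and -0.89 in WT, with -0.02 and 0.01 for all genes tested. The 12 calls in KO held under each alternative and with any 1 library left out.

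The mt-Cytb level was 5598, 3138 and 5027 scaled CPM in WT at 36W and 4238, 5024 and 3535 in KO, below every 4W library. It fell by 1.05 ± 0.21 in WT and by 1.28 ± 0.21 in KO (log2, SE, edgeR adjusted p = 0.00211 and 0.000295). The mt-Co1 level was 18033, 12772 and 14329 in WT and 12437, 12719 and 9502 in KO, also below every 4W library. It fell by 0.64 ± 0.18 in WT (adjusted p = 0.0187) and by 1.36 ± 0.18 in KO (adjusted p = 5.82e-05). The WT call was lost without WT replicate 3 of 4W (-0.54, adjusted p = 0.0826) or WT replicate 2 of 36W (-0.53, 0.0727), and with no filter on low counts (0.0587).

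In complex I, mt-Nd1 was 6499, 4659 and 5025 scaled CPM in WT at 36W and 4209, 4833 and 3658 in KO. The WT libraries overlapped those of 4W, with a change of -0.10 ± 0.18 (edgeR adjusted p = 0.746), while KO fell by 0.75 ± 0.18 (adjusted p = 0.00457). For mt-Nd2 the WT change was -0.40 ± 0.20 (adjusted p = 0.178) and KO fell by 1.20 ± 0.20 (adjusted p = 0.000343). These differences between genotypes were themselves -0.65 ± 0.25 for mt-Nd1 and -0.81 ± 0.28 for mt-Nd2, with adjusted p of 0.216 and 0.171, and were not called. The mt-Nd5 gene, a proton-pumping subunit, had 3457, 1957 and 3003 scaled CPM in WT at 36W and 2276, 2264 and 1263 in KO, the last being its lowest level in any library. It fell by 0.70 ± 0.23 in WT (adjusted p = 0.0437), a call lost without any 1 of WT replicates 1, 2 and 3 of 4W or WT replicates 2 and 3 of 36W (adjusted p 0.0574 to 0.174) or with no filter on low counts (0.059), and by 1.47 ± 0.24 in KO (adjusted p = 0.000264). The mt-Nd6 gene, the only one read from the opposite strand, fell by 0.81 ± 0.21 in WT (adjusted p = 0.0104) and by 1.03 ± 0.21 in KO (adjusted p = 0.00135). Without WT replicate 3 of 4W the WT adjusted p of mt-Nd6 was 0.0578.

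Of the low set, mt-Nd3 fell by 0.97 ± 0.16 in WT and by 1.67 ± 0.17 in KO (edgeR adjusted p = 0.000668 and 7.61e-06), and mt-Co2, mt-Atp6 and mt-Co3 by 0.91 to 1.12 in both genotypes. The chromosome 1 copies moved the same way. The 7 copies fell by 0.86 to 1.16 in WT and by 0.90 to 1.79 in KO, and each was called.

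Against 2D, the 36W levels were lower for 4 of 12 genes in WT and 6 of 12 in KO, beside 17.1% and 15.8% of all genes. In WT the called genes were mt-Nd1, mt-Co2, mt-Atp6 and mt-Nd6, of which mt-Nd6 fell most, by 0.97 ± 0.21 (edgeR adjusted p = 0.00173). In KO they were mt-Nd1, mt-Nd2, mt-Co1, mt-Nd3, mt-Nd5 and mt-Nd6, led by mt-Nd5 with a fall of 1.41 ± 0.24 (adjusted p = 0.000313). The WT count rests on the scaling and on single libraries. It was 11 with library size alone, which shifted the median log2 fold change of all genes by -0.391 from that with TMM. It was 1, 2 and 1 without WT replicate 1 of 2D, WT replicate 2 of 2D and WT replicate 2 of 36W. Without WT replicate 3 of 2D it was 3. The KO count also moved with the scaling. Library size alone additionally called mt-Co2, mt-Nd4 and mt-Cytb in KO (edgeR adjusted p 0.0357, 0.0382 and 0.014). DESeq2 called 7 genes in KO, while leaving out 1 library kept the edgeR count at 6.

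Within the mitochondrial counts the mix of genes also shifted with time. The percentages here were described after the values were seen and carry no test. The mt-Co1 gene took 38.6% to 46.6% in the 18 libraries. The mt-Nd1 part was 15.96% to 19.7% in WT and 14.4% to 16.4% in KO at 2D, and 10.5% to 11.05% in the 6 libraries of 4W. At 36W it was 14.5% to 16.2%, above every 4W library in both genotypes. The mt-Cytb part ran the other way, with 10.8% to 13.5% at 2D and 15.6% to 17.6% at 4W, and 10.9% to 16.1% at 36W. Counts of mt-Nd1 per count of mt-Cytb were 1.07 to 1.83 at 2D, 0.599 to 0.703 at 4W and 0.962 to 1.48 at 36W, with no overlap between 4W and the other times. No 50-base window of either gene occurs in another annotated transcript, while 3.07% of the 36-base windows of mt-Cytb do. The nuclear genome outside annotated transcripts was not searched. A ratio within a library does not depend on scaling.

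**Figure D5:**
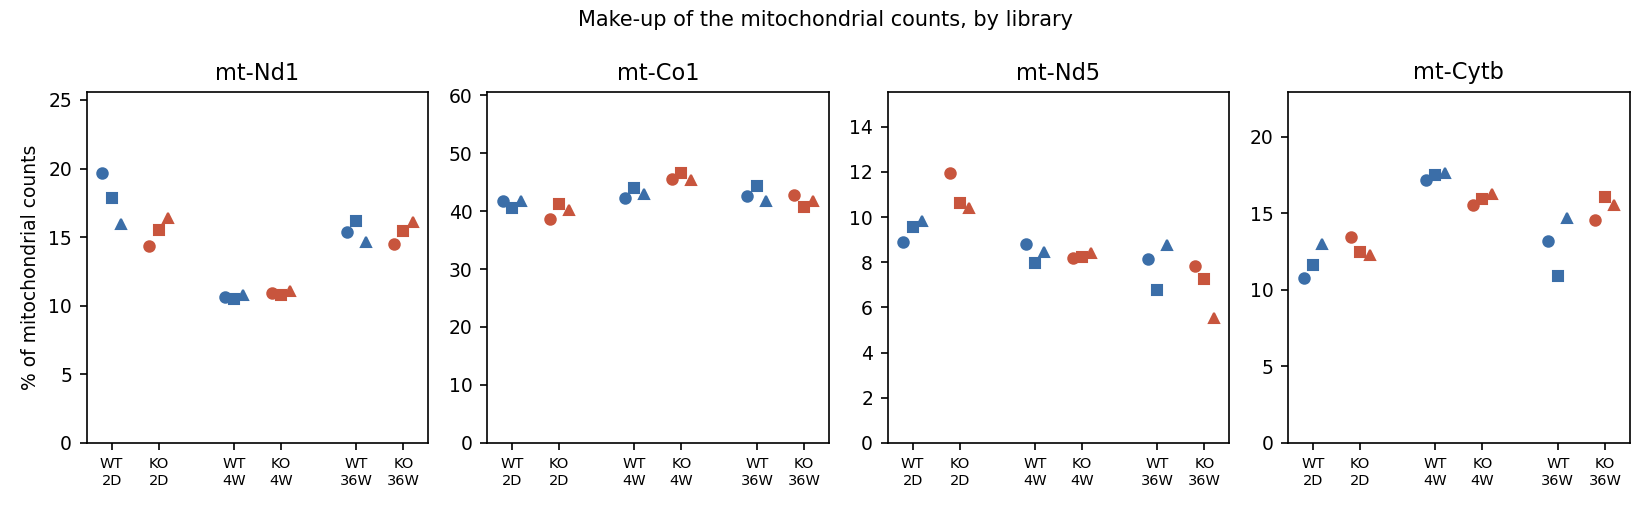
Each point is 1 library and the vertical axes give the percentage of all mitochondrial counts that fell on mt-Nd1, mt-Co1, mt-Nd5 and mt-Cytb, in the 6 groups, with WT in blue and KO in red and circles, squares and triangles for replicates 1, 2 and 3. The mt-Nd1 part at 4W, 10.5% to 11.05%, lies below all libraries of 2D and 36W.

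The mt-Nd5 part was lowest in KO replicate 3 of 36W, at 5.55% against 6.79% to 11.96% in the other libraries. That library had 0.441 counts of mt-Nd6 per count of mt-Nd5, where the other 17 had 0.194 to 0.309. It also had the lowest mitochondrial share, 2.12%, and 0.372 counts of Gm28438 per count of mt-Nd3. That ratio was 0.228 and 0.179 in the other KO libraries of 36W and 0.119 to 0.160 in WT, below every KO library. At 2D it was 0.135 to 0.181 in KO and 0.177 to 0.257 in WT, with overlap. Counts of Gm28438 were only 26 to 90 per library. In KO replicate 3 of 36W the summed CPM of 3 T and NK cell markers was 17.98, against 1.09 to 5.28 in the other 17 libraries. Its sum of nuclear or unpolyadenylated RNAs was the highest of the 18, at 1388. Their part in these values was not tested.

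Nuclear genes that work with the mitochondrial ones were counted from lists. Between 4W and 36W many nuclear subunits of the respiratory chain were called lower, in WT more of them than in KO, while 9.13% of all genes were called lower in WT and 15.3% in KO. This difference between genotypes was not tested. In WT 33 of 37 complex I subunits were lower, 9 of 9 of complex III, 11 of 12 of complex IV, 15 of 16 of the ATP synthase and 4 of 4 of complex II, which has no mitochondrially encoded part, and 0 were higher. Median log2 fold changes were -0.65, -0.70, -0.82, -0.71 and -0.62. In KO the counts were 15 of 37, 4 of 9, 10 of 12, 10 of 16 and 4 of 4 lower with 0 higher, and the medians were -0.29, -0.32, -0.48, -0.45 and -0.66. The medians over all genes were 0.01 and -0.02.

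Cox5a, a nuclear subunit of complex IV, had 63.2, 71.0 and 74.99 scaled CPM in WT at 4W and 36.2, 31.4 and 34.9 at 36W, and fell by 1.03 ± 0.14 (log2, SE, edgeR adjusted p = 9.78e-05). In KO it had 61.1, 62.3 and 63.4 at 4W and 30.4, 34.3 and 44.5 at 36W and fell by 0.77 ± 0.14 (adjusted p = 0.00052). Ndufv1, the complex I subunit that takes electrons from NADH, had 167, 156 and 167 at 4W in WT and 92.8, 89.1 and 76.2 at 36W, and fell by 0.92 ± 0.13 (adjusted p = 0.000194). Sdha, the catalytic subunit of complex II, fell by 0.79 ± 0.12 in WT and by 0.97 ± 0.12 in KO (adjusted p = 0.000361 and 4.12e-05). The groups of 4W and 36W did not overlap for these genes.

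The lists of genes that copy, read and translate mitochondrial DNA were counted in the same comparison, in which 9.13% of all genes were called lower in WT, and in KO 15.3% lower and 14.5% higher. Among 19 genes of mitochondrial DNA transcription and packaging, 1 was lower at 36W than at 4W in WT, and in KO 7 were lower and 1 higher. The WT gene was Top1mt, the mitochondrial topoisomerase, with 21.9, 26.7 and 23.6 scaled CPM at 4W and 11.4, 10.4 and 12.5 at 36W. It fell by 1.08 ± 0.17 in WT and by 1.18 ± 0.17 in KO (edgeR adjusted p = 0.000322 and 8.62e-05). Of 31 tested genes of mitochondrial RNA processing and stability, 5 were lower in WT and 8 in KO. The translation factors Gfm1, Gfm2 and Taco1 were called lower in both genotypes, among 5 of 11 in WT and 6 of 11 in KO. Of 76 tested mitochondrial ribosomal proteins, 28 were lower in WT, while in KO 20 were lower and 5 higher.

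Between 2D and 4W, when 7 and 6 mitochondrial genes were higher, the nuclear subunit lists held calls in both directions. Of all genes, 19.1% were called higher and 18.6% lower in WT, and 13.5% and 10.8% in KO. In WT 2 of 37 complex I subunits were higher and 5 lower, 1 of 9 of complex III was higher and 1 lower, 0 of 12 of complex IV were higher and 1 lower, and 0 of 16 of the ATP synthase were higher and 2 lower. In KO 0 of these subunits were higher, and 4 of complex I and 1 of complex III were lower. Of 31 RNA processing genes 5 were higher and 2 lower in WT, and 4 and 2 in KO. Of 11 translation factors 5 were higher in WT and 2 in KO, with 0 lower. Of 76 mitochondrial ribosomal proteins 12 were higher and 3 lower in WT, and 3 and 7 in KO. Of 8 regulators of mitochondrial biogenesis 0 were higher and 4 lower in WT, and 1 and 2 in KO. Rexo2, an RNA processing gene that encodes a mitochondrial oligoribonuclease, rose by 1.55 ± 0.12 in WT and by 1.10 ± 0.12 in KO (edgeR adjusted p = 2.66e-07 and 1.6e-05). Ppargc1a, the coactivator PGC-1 alpha that promotes mitochondrial biogenesis, had 64.7, 86.6 and 33.4 scaled CPM at 2D and 12.3, 7.21 and 8.27 at 4W in WT, and fell by 2.73 ± 0.39 (adjusted p = 7.76e-05). In KO it had 38.7, 13.6 and 17.7 at 2D and 23.6, 18.01 and 15.8 at 4W, and these groups overlapped. The change of its KO effect from 2D to 4W was 2.45 ± 0.53 with an edgeR adjusted p of 0.0307.

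KO against WT, the pathway lists held 1 call at 2D, 5 at 4W and 0 at 36W, where 0.165%, 6.08% and 0.037% of all genes were called. The share of the listed genes that was called was not worked out, so these calls are not a result about the lists. At 2D 1 gene of the pathway lists was called, the ATP synthase subunit Usmg5, which was 0.77 lower (log2, SE 0.10, edgeR adjusted p = 0.049). At 4W the complex I subunits Ndufb3, Ndufa8 and Ndufa13 were lower by 0.39 to 0.54. Mrps36, listed with the mitochondrial ribosomal proteins by its name, was lower by 0.90. Ppargc1a was higher, with 23.6, 18.01 and 15.8 scaled CPM in KO against 12.3, 7.21 and 8.27 in WT, by 1.04 ± 0.23 (adjusted p = 0.0291). At 36W 0 genes of these lists were called.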

How the data were processed

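RNA of 18 liver libraries was sequenced, 3 in each of 6 groups of genotype and time. Per the submitters' processing notes, STAR 2.5, HTSeq, DESeq2 and mm10 were used; their roles, settings and strand handling are not given in the sources used here. The deposited table holds raw counts per gene, made by the authors. The members and lists were chosen with earlier results of these data known.

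Shares are mitochondrial counts over all gene counts, compared by exact two-sided permutation. Gene tests used edgeR 4.0.16 (quasi-likelihood, TMM, filterByExpr, Benjamini-Hochberg over all genes, threshold 0.05). KO against WT was fitted in the 6 libraries of a time, and time and differences of KO effects in 18. The code was tested on simulated data with 200 changed genes. Alternatives included DESeq2 1.42.0, limma-voom (limma 3.58.1), other scalings and filters, a replicate block and leaving out 1 library. All mt- genes were named, and of each nuclear list the called members with the smallest p-values, at most 3 a comparison. Windows of 50 bases were searched in 141730 other GENCODE M21 transcripts, and each library's precision follows from its 15294175 to 24233456 counts. R 4.3.3 and Python 3.11.15 were used.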

Additional observations from a re-analysis of the deposited data

Results flagged for a closer look

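The KO effect on mt-Nd3, a complex I subunit, differed between 2D and 36W in the test of that difference itself, by -1.02 ± 0.24 (log2, SE, edgeR adjusted p = 0.0316). KO libraries were above WT at 2D and below WT at 36W, with no overlap at either time. Leaving out any 1 of 7 libraries gave adjusted p of 0.0621 to 0.0879, and 98.0% of the 50-base windows of the gene also occur in another transcript. In the same contrast the copy Gm28438 had 0.36 ± 0.42 (adjusted p = 0.683). The part of reads shared with the copy was not tested.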

How the results depend on the processing

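Over settings other than leaving out a library, 1157 of 1188 results stayed on the same side of the threshold, 13 lost a call, 18 gained one and 0 reversed. A change of sign counted as reversed only where a call was involved. Uncalled genes could change sign and still count as kept, as mt-Nd2 and mt-Nd5 did with library size alone for 4W against 2D. Library size alone gave 5 called genes for 4W against 2D in WT, 11 for 36W against 2D in WT and 0 for the change of the KO effect from 2D to 36W. The fit of all 18 libraries gave 1 for KO against WT at 36W, and DESeq2 gave 1 for the change of the KO effect from 4W to 36W. The cause was not tested.

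By the rule above, leaving out 1 library kept 1037 of 1080 results. Called genes ran from 6 to 7 for 4W against 2D in WT and from 3 to 7 in KO, from 7 to 10 for 36W against 4W in WT and from 12 to 12 in KO, and from 1 to 5 for 36W against 2D in WT and from 6 to 6 in KO. The change of the KO effect from 2D to 36W had 0 to 1. KO minus WT shares ran from -0.202 to -0.107 points at 2D, from 0.615 to 1.17 at 4W, from -0.778 to -0.105 at 36W and from -0.0238 to 0.201 over the 3 times. Time differences ran from 0.363 to 0.642 points for 4W minus 2D, from -2.95 to -2.62 for 36W minus 4W and from -2.47 to -2.13 for 36W minus 2D.

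Deviations from the group mean correlated with r from -0.067 to 0.23 between same-numbered WT and KO libraries of a time. Between differently numbered ones r was -0.214 to 0.211, and not every library correlated best with its own number. Whether the numbers mark pairs is not given, and these correlations cannot decide it. With the replicate block, KO minus WT shares had exact permutation p of 0.25 at 2D, 0.25 at 4W, 0.5 at 36W and 0.805 over all times. At a single time 0.25 is the smallest p that this blocked test allows. Called genes were 7 instead of 8 for 4W against 2D in WT, where mt-Nd1 was lost (adjusted p 0.0582). For 36W against 2D in WT mt-Co2 was lost (0.055) and mt-Nd5 gained (0.0496).

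Chosen after seeing the data, the share of genes without shared windows fell by 0.749 points from 4W to 36W, and with the chromosome 1 copies added the share fell by 2.76. Planned results on ribosomal and transfer RNAs could not be run on these 13 rows. Counts of mt-Atp8 and mt-Nd4l are too low for small changes to be detectable at this depth.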

Other observations

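The nuclear genes whose log2 CPM followed the summed mitochondrial counts most closely over 18 libraries, of 14844 compared, were Suox, Cyp4f15, Gas2, Ephx2 and Pemt, with Pearson r of 0.955, 0.952, 0.948, 0.946 and 0.946. The most opposite were Mbip, Smox, Sertad1, Usf1 and Gm13387, with r of -0.955, -0.951, -0.948, -0.942 and -0.935. These are descriptions across libraries that share their time groups, with no test.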
